A study of Sus scrofa with 2 samples.

Results

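S100 proteins and annexins are the calcium-binding families described here, in follicular granulosa cells of Chinese Erhualian pigs, the somatic cells around the oocyte in the ovarian follicle. The tables list 34570 genes. The members are the mRNA entries whose symbol starts with S100 and a letter or with ANXA and a digit, which takes 24 entries. Of these, 22 are family genes, 11 S100 and 11 annexin, while S100PBP (a binding protein of S100P) and ANXA2R (a receptor for annexin A2) match by name alone and are given apart. The families were selected partly on the measured ratio of S100A11 between the libraries at a large number of reads, so its values below describe the gene that the choice rested on and support nothing beyond that.

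Cells were treated with SMAD4-siRNA, which targets the SMAD through which TGF-beta and BMP receptors both signal, or with NC-siRNA, the control. Each group is 1 library of total RNA pooled in equal amounts from 3 individuals, so no difference between the groups has a replicate check and no test between them was possible. The labels do not give the individuals, the dose, the time after transfection or the number of cells, and they do not say whether both pools came from the same animals. In a pooled bulk library, fewer cells of a type and less RNA per cell cannot be told apart.

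S100 proteins are small EF-hand proteins that mostly act as dimers: calcium opens a binding face with which they hold target proteins, and some are also secreted and act on surface receptors. Annexins bind acidic phospholipids of membranes when calcium is present, and work in membrane repair, vesicle traffic, the link of membranes to actin and, outside the cell, in plasminogen activation. The families meet in fixed partnerships, best known from human and mouse cells, in which an S100 dimer joins a pair of annexins at their N-terminal tails, as S100A10 does with ANXA2 and S100A11 with ANXA1. Roles given below come mainly from work in human and mouse.

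Values are RPKM further scaled by an upper quartile (UQ-RPKM), a unit per transcript length in which genes can be compared. Whole reads could be worked back from the values. They are lower bounds for the scaling divisors taken (given below), at least 17394711 reads on genes in the SMAD4-siRNA library and 17680952 in the NC-siRNA library. A range in parentheses after a ratio is an exact 95% Clopper-Pearson interval, which covers counting error alone, not differences between animals or transfections. The scale itself leaves room for doubt: all values summed to 0.921 as much in the SMAD4-siRNA library as in the NC-siRNA library, so rescaling both to the same sum adds 0.12 to every log2 ratio and lifts any ratio from 0.921 upwards above 1. SMAD4 had 47.9 UQ-RPKM in the SMAD4-siRNA library, against 85.0 in the NC-siRNA library, a ratio of 0.563 (0.497 to 0.639). Of 12 granulosa markers 9 were above 0 in a library, among them FOXL2, GATA4, WT1 and NR5A1, whereas CYP19A1, AMH and INHBB were listed at 0 in both and FSHR had 7 and 9 reads.

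Among the S100 genes, S100A11 alone stood far apart between the libraries. S100A11 holds ANXA1 and other annexins and takes part in membrane repair and growth control. It had 9453 UQ-RPKM (4595 reads or more) in the SMAD4-siRNA library, against 2571 UQ-RPKM (1135 reads or more) in the NC-siRNA library. This is a ratio of 3.68 (3.44 to 3.93) and a log2 ratio of 1.88. S100A11 was the highest S100 entry under its own symbol in both libraries. By level it stood at rank 197 of all entries in the SMAD4-siRNA library and at rank 698 in the NC-siRNA library. Among the 4139 genes with at least 1000 reads over both libraries its log2 ratio was the sixth from the top (rank 6), and among the 9664 with at least 100 reads it was at rank 26. The labels do not say how reads on near-identical copies were assigned, and the intervals do not cover it.

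**Figure D1:**
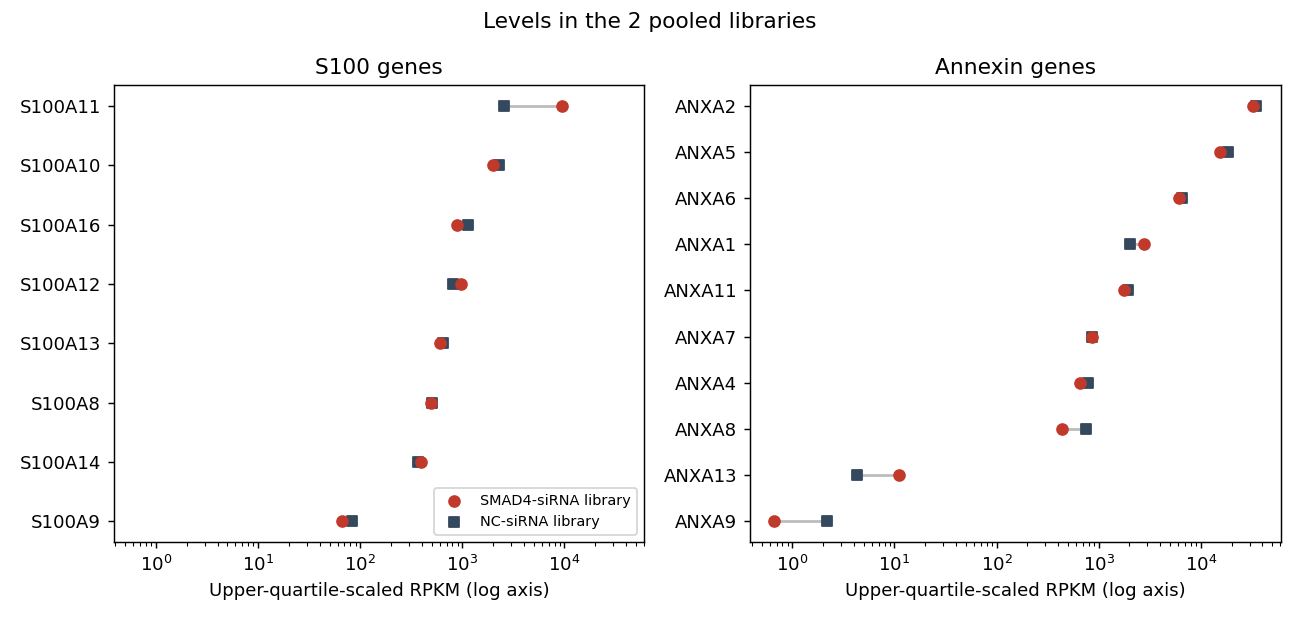
Level of each S100 (left) and annexin (right) gene above 0, as upper-quartile-scaled RPKM on a log axis, with red circles for the SMAD4-siRNA library, dark squares for the NC-siRNA library and a grey line joining both. The circle and square of S100A11 lie well apart, at 9453 against 2571, and those of ANXA13 and ANXA9 are apart at the bottom of the range, on 35 and 4 reads.

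S100A10, the partner of ANXA2 and a member whose EF-hands no longer bind calcium, was on the lower side. It had 1999 UQ-RPKM in the SMAD4-siRNA library, against 2271 in the NC-siRNA library, a ratio of 0.880 (0.821 to 0.944). With both libraries rescaled to the same sum, that interval ran from 0.891 to 1.02 and held 1. S100A16, a widely expressed member, had 887 UQ-RPKM after SMAD4-siRNA, against 1136 after NC-siRNA. Its ratio of 0.781 (0.734 to 0.830) remained below 1 after rescaling, at 0.847 (0.797 to 0.901). S100A13, which helps release growth factors that lack a signal peptide, had 606 UQ-RPKM in the SMAD4-siRNA library and 647 in the NC-siRNA library, and its ratio of 0.937 (0.774 to 1.14) was 1.02 after rescaling. S100A14, best known from epithelia, had 397 and 366 in the same order, at 1.09 (0.941 to 1.25). Its interval lay above 1 after rescaling, from 1.02 to 1.36.

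The calgranulins, S100A8, S100A9 and S100A12, are stored in large amounts by neutrophils and monocytes, and S100A8 and S100A9 pair as calprotectin. S100A12 had 975 UQ-RPKM in the SMAD4-siRNA library and 813 in the NC-siRNA library, a ratio of 1.20 (0.950 to 1.52), or 1.30 (1.03 to 1.65) after rescaling. S100A8 had 497 and 504 UQ-RPKM in the same order, with a ratio of 0.987 (0.798 to 1.22) that was 1.07 after rescaling. S100A9 was far lower than its partner, at 65.8 and 82.8 UQ-RPKM on 14 and 16 reads, so that the level of S100A8 was 7.55 times that of S100A9 in the SMAD4-siRNA library and 6.08 times in the NC-siRNA library. Its ratio of 0.795 (0.359 to 1.74) says little at that number of reads. The reads of S100A9 were recovered at a length of 217 bases and those of S100A12 at 181 bases. Both may thus be too few and their intervals too wide. Of 6 neutrophil marker entries, CSF3R, MPO and CXCR2 were listed at 0 in both libraries, and all 6 summed to 5.84 and 3.49 UQ-RPKM. Leukocyte markers summed to 649 UQ-RPKM in the SMAD4-siRNA library and 676 in the NC-siRNA library over 11 entries, 9 of them above 0. CD14 held most of that, at 566 and 579, while PTPRC, the pan-leukocyte antigen, had 0.606 and 0.334 and CD163 and CD3E were listed at 0. The part of other cells in the calgranulin levels was not tested.

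S100A7, S100G and S100Z were listed at 0 in both libraries. So were CAPN2, a calpain subunit, and BSG, a surface glycoprotein, which most cells express, so a listed 0 does not speak of expression. Across the 8 S100 genes above 0, the value summed to 14880 UQ-RPKM in the SMAD4-siRNA library and 8390 in the NC-siRNA library, a ratio of 1.77. S100A11 made up 63.5% and 30.6% of these sums. Without S100A11 the sums were 5427 and 5819, a ratio of 0.933 that passes to the other side of 1 with rescaling. The other 7 had log2 ratios between -0.36 and 0.26.

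**Figure D2:**
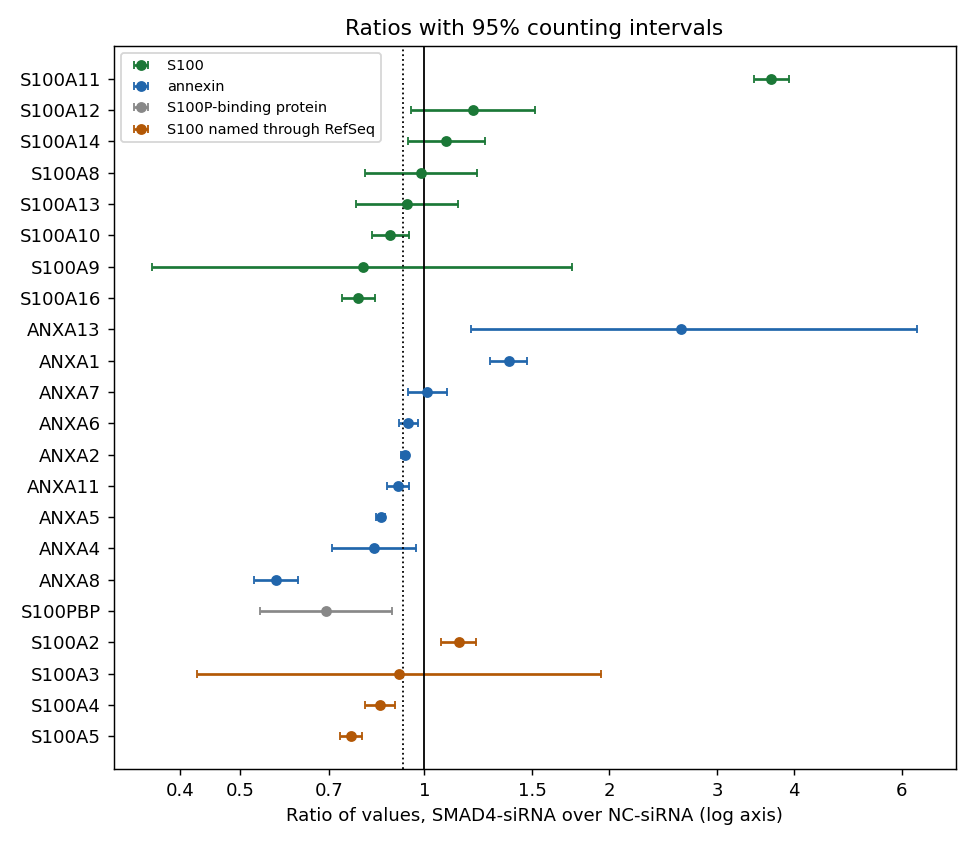
Ratio of values, SMAD4-siRNA over NC-siRNA, on a log axis for every entry with at least 20 reads, with bars for 95% counting intervals, a solid line at 1 and a dotted line at 0.921, the ratio that becomes 1 when both libraries are rescaled to the same sum. S100A11 lies at 3.68, ANXA8 at 0.573, and most annexins fall between 0.827 and 1.01, with several intervals crossing or close to the dotted line.

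Annexin levels ran from a few UQ-RPKM or less to the highest of both families. ANXA2, which links membranes to actin and serves as a plasminogen receptor together with S100A10, was at the top. It had 32501 UQ-RPKM in the SMAD4-siRNA library and 35005 in the NC-siRNA library, on 49783 and 48695 reads or more, which made it rank 55 and rank 53 of all entries. Its share of the summed annexin value was 53.6% and 52.9%. The ratio was 0.928 (0.917 to 0.940). With rescaling it was 1.01 (0.995 to 1.02), so its direction rests on the scale used.

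ANXA5, the annexin used to detect phosphatidylserine on dying cells, came second with 15508 UQ-RPKM in the SMAD4-siRNA library, against 18276 in the NC-siRNA library. Its ratio of 0.849 (0.834 to 0.863) stayed below 1 after rescaling, at 0.921 (0.905 to 0.937). ANXA6, the large annexin with a duplicated core, which acts in endocytosis and cholesterol traffic, had 6143 and 6530 UQ-RPKM in the same order. Its ratio of 0.941 (0.908 to 0.974) passed to 1.02 (0.986 to 1.06) with rescaling. The order of levels, ANXA2, ANXA5 and ANXA6, was the same in both libraries.

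ANXA1, the glucocorticoid-induced partner of S100A11 and a ligand of formyl peptide receptors, was the one abundant annexin on the higher side. It had 2761 UQ-RPKM (2051 reads or more) in the SMAD4-siRNA library, against 2013 UQ-RPKM (1358 reads or more) in the NC-siRNA library. Its ratio of 1.37 (1.28 to 1.47) was 1.49 after rescaling. Below it came ANXA11, which tethers RNA granules to lysosomes, with 1751 UQ-RPKM in the SMAD4-siRNA library and 1934 in the NC-siRNA library. Its ratio of 0.905 (0.868 to 0.945) had an interval that held 1 after rescaling (0.942 to 1.03). ANXA1 thus stood above ANXA11 in both libraries, by a wider margin after SMAD4-siRNA.

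ANXA7, known for the fusion of secretory granules, had 867 UQ-RPKM in the SMAD4-siRNA library and 859 in the NC-siRNA library, a ratio of 1.01 (0.939 to 1.09). Rescaling placed it above 1, at 1.10 (1.02 to 1.18). ANXA4, which forms lattices on membranes, had 654 and 791 in the same order. The ratio was 0.827 (0.706 to 0.969), with an interval that held 1 after rescaling (0.767 to 1.05). Reads of ANXA4 were recovered at a length of 479 bases, so they may be too few and these intervals too wide.

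ANXA8, an annexin with anticoagulant activity found mostly in epithelia, had the lowest ratio among annexins with at least 100 reads. It had 432 UQ-RPKM (957 reads or more) in the SMAD4-siRNA library, against 754 UQ-RPKM (1516 reads or more) in the NC-siRNA library. This ratio of 0.573 (0.528 to 0.622) was 0.622 (0.573 to 0.675) after rescaling. Among genes with at least 1000 reads it was the 44th from the bottom (rank 44 of 4139). Epithelial markers summed to 540 UQ-RPKM in the SMAD4-siRNA library and 484 in the NC-siRNA library. KRT8 held most of that, at 428 and 386, and KRT7, KRT14, EPCAM, CDH1 and MSLN were listed at 0 in both libraries. KRT8 was the 1 epithelial marker with at least 100 reads, at a ratio of 1.11 (0.965 to 1.28), and the part of epithelial cells in the ANXA8 values was not tested.

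The remaining annexins were scarce. ANXA13, an annexin of intestine and kidney, had 11.2 UQ-RPKM in the SMAD4-siRNA library and 4.26 in the NC-siRNA library, on 26 and 9 reads. Its ratio of 2.62 ran from 1.19 to 6.36. ANXA9, whose core is thought not to bind calcium, had 0.661 and 2.18 UQ-RPKM on 1 and 3 reads, and ANXA10 was listed at 0 in both libraries. All annexins summed to 60629 UQ-RPKM in the SMAD4-siRNA library and 66168 in the NC-siRNA library, a ratio of 0.916 that was 0.995 after rescaling.

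Counted by size, 1 of 8 measured S100 genes (S100A11) and 1 of 10 measured annexins (ANXA13) were higher by at least 2-fold, where measured means a mean value of at least 1 and the fold is taken on the scale of value + 1. Over all genes, 7.17% of the 16609 measured genes were that much higher and 6.68% that much lower, and 0 members were lower by 2-fold. Among genes with at least 100 reads, 1.32% were 2-fold higher and 1.12% lower, and S100A11 was the 1 of 15 family genes past that fold. Since the families were chosen partly on S100A11, its place in these counts was given by the choice and says nothing about the family. Without S100A11, 0 S100 genes were higher by 2-fold. The median log2 ratio was -0.06 over the S100 genes and -0.13 over the annexins, beside -0.05 for all measured genes. After rescaling, the annexin median was -0.01 and that of all genes 0.07.

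Counting intervals add direction at high read number. Of the 7 S100 genes with at least 100 reads, 1 had an interval wholly above 1, 2 wholly below it, and 4 held 1. Of the 8 such annexins, 1 lay above (ANXA1), 6 below and 1 (ANXA7) held 1. Over all genes with at least 100 reads, 17.6% lay above and 32.4% below, and genes with many reads, like most annexins, have narrower intervals. With both libraries rescaled the annexins below 1 were 2, ANXA5 and ANXA8, and those above were 2, ANXA1 and ANXA7, where 30.8% of all such genes lay above and 19.6% below. When centred on the median of all measured genes instead, 4 of the 8 annexins lay wholly below 1. The share of all genes was not taken on that scale, so this count has nothing to stand beside. The 4 were ANXA2 (0.948 to 0.972), ANXA5, ANXA8 and ANXA11 (0.897 to 0.976), and ANXA1 stayed above. The interval of ANXA4 held 1 on both of these other scales, but it may be too wide. The number of annexins below 1 thus depended on the scale used, and 1 library per group cannot settle which scale is right.

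**Figure D3:**
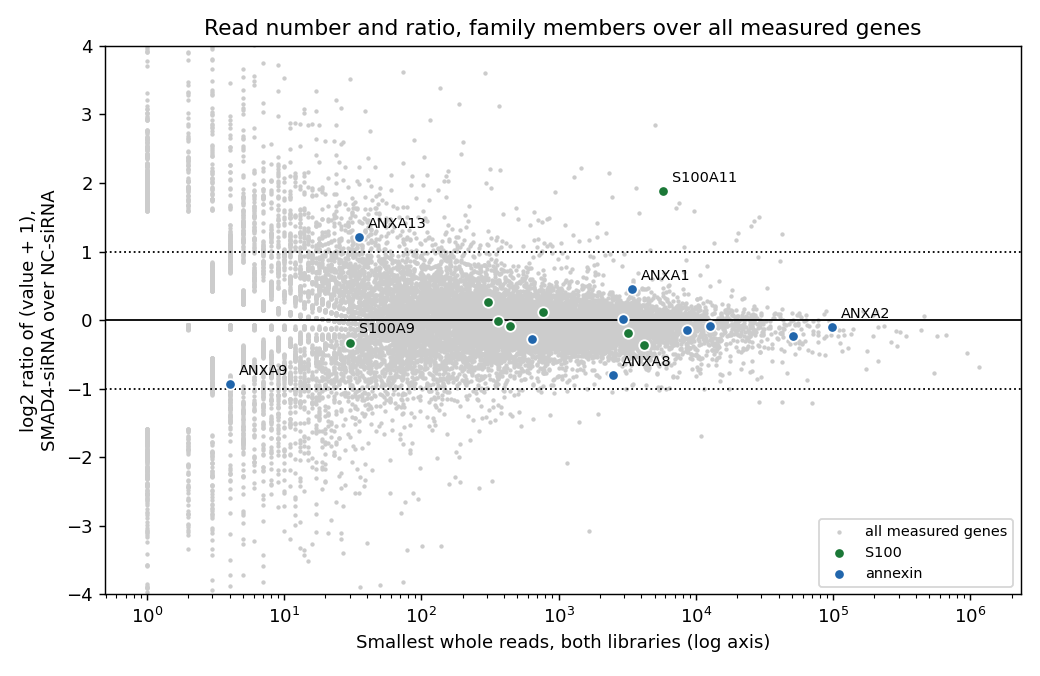
Log2 ratio of (value + 1), SMAD4-siRNA over NC-siRNA, against the smallest whole reads of both libraries on a log axis, for all measured genes (grey), S100 genes (green) and annexins (blue). The dotted lines mark 2-fold and the vertical axis is cut at 4 and -4. S100A11 lies at 1.88 with 5730 reads, outside the cloud of genes with as many reads, while ANXA13, at 1.21, lies within the wide cloud at 35 reads.

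Known partners differed between the libraries by unequal sizes. For the pair of S100A11 and ANXA1, the ratios were 3.68 and 1.37, both above 1, and the level of S100A11 was 3.42 times that of ANXA1 in the SMAD4-siRNA library and 1.28 times in the NC-siRNA library. For S100A10 and ANXA2 the ratios were 0.880 and 0.928. S100A10 had 0.0615 of the level of ANXA2 in the SMAD4-siRNA library, against 0.0649 in the NC-siRNA library, so this pair kept nearly the same proportion. S100A6, the partner of ANXA11, was not analysed here, nor was S100A1.

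Most S100 genes lie in a cluster, and in the RefSeq gene order of assembly Sscrofa11.1 S100A11 stands directly beside S100A10, some way from the rest. The neighbours had ratios far below the 3.68 of S100A11, and S100A10 was at 0.880. Among the 10 nearest measured genes, 5 on either side, the other entries with at least 100 reads were S100A12 at 1.20 and MRPL9, a mitochondrial ribosomal protein, at 1.11 (0.972 to 1.26). The 5 on the side away from S100A10 lay farther off, with many unmeasured coding genes between, and S100A12 was the farthest. OAZ3, an antizyme, had 1.82 (0.987 to 3.47) on 34 and 17 reads, and the remaining 6 had under 100 reads, each with an interval that held 1. 

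**Figure D4:**
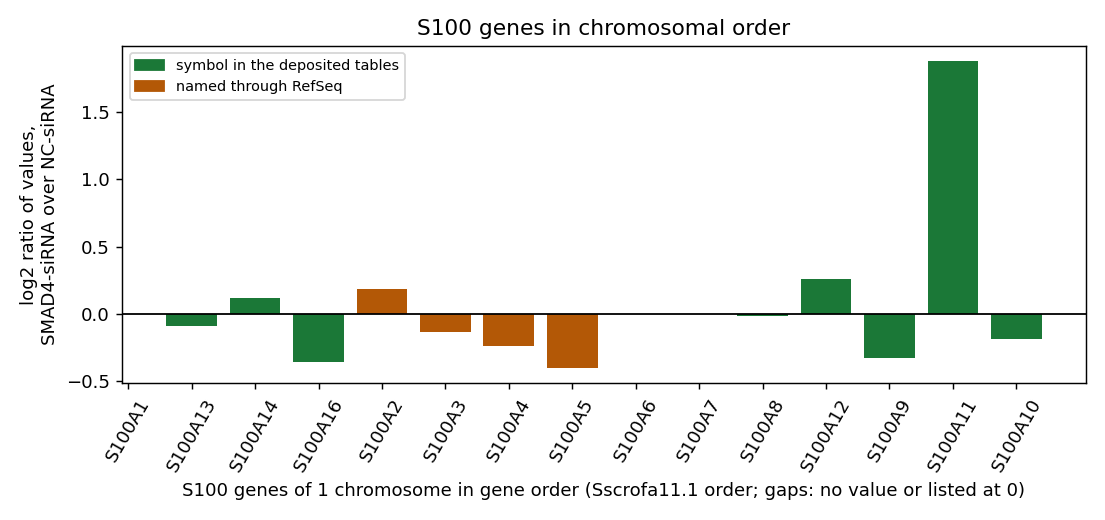
Log2 of the plain ratio of values, SMAD4-siRNA over NC-siRNA, for the S100 genes of 1 chromosome in their RefSeq order, with green bars for symbols of the deposited tables and orange bars for entries named through RefSeq. S100A11 stands at 1.88 beside S100A10 at -0.18, and the other bars lie between -0.40 and 0.26.

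RefSeq gives family names to 6 further entries that the tables list under an ID without a symbol, and 5 of them were above 0. S100A5, best known from the olfactory system, is the name it gives to an entry of high level, with 8843 UQ-RPKM in the SMAD4-siRNA library and 11668 in the NC-siRNA library. The ratio was 0.758 (0.727 to 0.790), and 0.823 after rescaling. Whether the annotation behind the tables gave this entry the same gene is not known. S100A2, a nuclear member of epithelia, had 4124 and 3624 UQ-RPKM in the same order, at a ratio of 1.14 (1.07 to 1.21). S100A4, which binds non-muscle myosin and marks motile and fibroblast-like cells, had 2864 UQ-RPKM in the SMAD4-siRNA library and 3384 in the NC-siRNA library, at 0.846 (0.800 to 0.895). Of 6 theca and fibroblast markers above 0, 4 had an interval below 1, among them DCN at 0.743 and COL3A1 at 0.768. COL1A1 was above 1, at 1.06. After rescaling, 3 lay below and 1 above. For all genes with at least 100 reads the shares were 32.4% below and 17.6% above, or 19.6% and 30.8% after rescaling. The 8 theca and fibroblast markers summed to 44995 UQ-RPKM in the SMAD4-siRNA library and 53481 in the NC-siRNA library, with CYP17A1 and INSL3 listed at 0 in both. Smooth muscle markers summed to 35532 and 45387 in the same order, with ACTG2, CNN1 and SMTN between 0.754 and 0.832, DES at 1.16 and MYH11 listed at 0. The granulosa markers summed to 26062 and 14863, of which HSD3B1 held 23378 and 12334. As a list they did not share a direction. Of 9 measured, 4 log2 ratios were above 0 and 5 below, with a median of -0.03. INHBA was at 1.31 (1.22 to 1.41), NR5A1 at 0.849 (0.741 to 0.973) and AMHR2 at 0.493 (0.266 to 0.886). The part of such cells in the S100 and annexin values was not tested. S100A3 had 25.8 and 28.4 on 16 reads in each library, and S100B, the glial member, was listed at 0 in both. ANXA3 had 4 and 3 reads or more, recovered at a length of 117 bases, so these may be too few. With these entries, 0 further S100 genes passed 2-fold, and S100A11 took the first place in the SMAD4-siRNA library while the S100A5 entry had it in the NC-siRNA library.

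Binding partners of the families, a list of 28 genes, differed by less than 2-fold in all 21 measured cases on the scale of value + 1. By plain ratio KDR, the VEGF receptor, was at 2.36 (0.790 to 8.46) on 13 and 5 reads. Their median log2 ratio was -0.09. Of the 16 with at least 100 reads, 4 had an interval above 1 and 9 below it, or 6 and 9 after rescaling. For all genes with at least 100 reads the shares were 17.6% above and 32.4% below, or 30.8% and 19.6% after rescaling. AHNAK, the giant scaffold that the complex of S100A10 and ANXA2 holds at the membrane, was the lowest of the 16 partners. It had 546 UQ-RPKM in the SMAD4-siRNA library, against 892 in the NC-siRNA library. Its ratio was 0.612 (0.587 to 0.638). S100PBP, one of the entries that match by name alone, had 56.4 and 81.5 UQ-RPKM in the same order, at 0.691 (0.539 to 0.884). At the other end were SUGT1, a cochaperone that binds S100A6, at 1.47 (1.17 to 1.85) and CAV1, the main protein of caveolae, at 1.40 (1.10 to 1.78). ANXA2R, the other entry taken by name, had 1.88 and 4.14 UQ-RPKM on 1 and 2 reads.

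Receptors of S100 proteins and of plasminogen were listed together with plasminogen itself (PLG) and its activators PLAT and PLAU, which are not receptors. The median of this list was 0.02 over 11 measured genes, and 0 passed 2-fold. AGER, the receptor RAGE, was listed at 0 in both libraries, and TLR4, which senses calprotectin, had 10.3 UQ-RPKM in the SMAD4-siRNA library and 9.59 in the NC-siRNA library on 13 and 11 reads. PLAU, the urokinase that activates plasminogen, was the lowest of the 8 with at least 100 reads. It had 653 UQ-RPKM in the SMAD4-siRNA library, against 924 in the NC-siRNA library, a ratio of 0.706 (0.660 to 0.756). SDC4, a heparan sulfate proteoglycan, followed at 0.808 (0.754 to 0.865). MCAM, an adhesion molecule reported as an S100 receptor, was at 1.11 (0.944 to 1.30) and ENO1, a glycolytic enzyme that also binds plasminogen at the surface, at 1.05 (1.04 to 1.07). Of the 8, 1 had an interval above 1 and 4 below it, or 4 and 4 after rescaling. The shares of all genes with at least 100 reads were 17.6% above and 32.4% below, or 30.8% and 19.6% after rescaling.

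Other EF-hand proteins served as the wider family of S100. Their median was -0.06 over 27 measured genes, and 0 passed 2-fold. MYL6, the essential light chain of smooth muscle and non-muscle myosin, came closest, with 15935 UQ-RPKM in the SMAD4-siRNA library, against 8764 in the NC-siRNA library. Its ratio was 1.82 (1.78 to 1.86). CETN3, a centrosome protein, followed at 1.32 (0.902 to 1.93). The lowest were LCP1, an actin bundler of leukocytes, at 0.707 (0.522 to 0.955) and CETN2, another centrin, at 0.786 (0.696 to 0.889). Among 26 genes with at least 100 reads, 5 had an interval above 1 and 16 below it. After rescaling these were 11 and 9. Over all genes with at least 100 reads the shares move with the scale as well, from 17.6% above and 32.4% below to 30.8% above and 19.6% below.

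Many proteins with a C2 domain, though not all, use it to reach membranes with calcium, as annexins do by their own core. The list of C2-domain proteins had the lowest median of the 4 companion lists, -0.27 over 16 measured genes. Of the 13 with at least 100 reads, 9 had an interval below 1 and 0 above it, or 7 and 1 after rescaling. For all genes the shares were 32.4% below and 17.6% above, or 19.6% and 30.8% after rescaling. PRKCE, a calcium-independent protein kinase C, had 63.1 UQ-RPKM in the SMAD4-siRNA library and 115 in the NC-siRNA library, a ratio of 0.551 (0.385 to 0.781). PRKCB, a calcium-dependent one, was at 0.616 (0.437 to 0.861). CAPN5, a calpain with a C2 domain, was at 1.08 (0.959 to 1.22) and SYT11, a synaptotagmin, at 1.06 (0.806 to 1.39). Past 2-fold were 1 higher and 1 lower of the 16, MCTP1 on 23 and 9 reads and CPNE8, a copine, on 1 and 19.

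**Figure D5:**
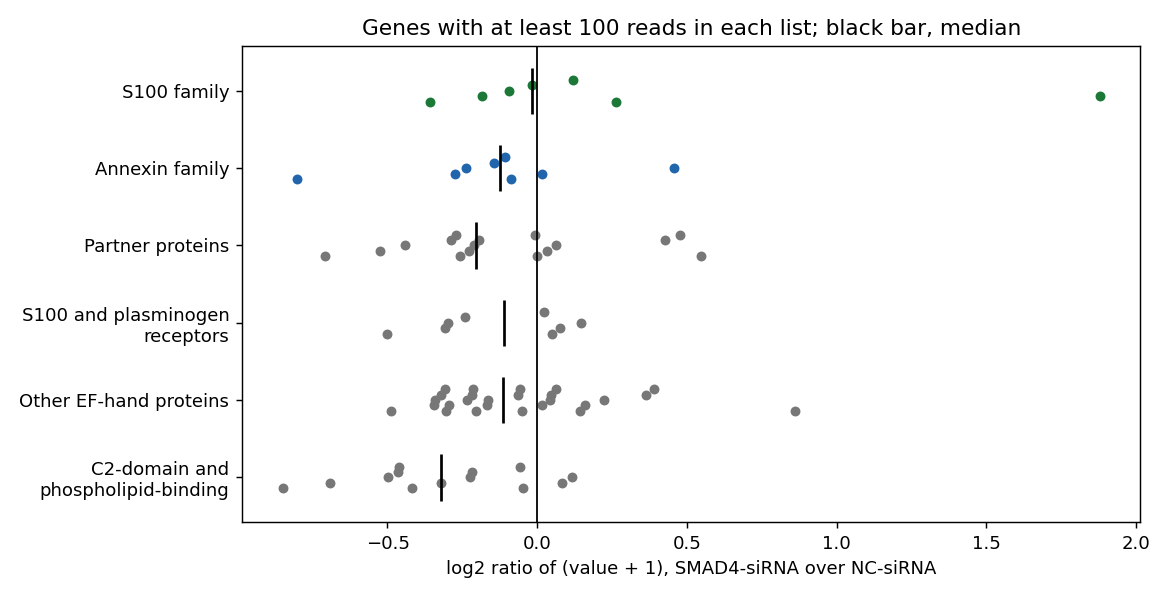
Log2 ratio of (value + 1), SMAD4-siRNA over NC-siRNA, for each gene with at least 100 reads in the S100 family, the annexin family and 4 companion lists, with a black bar at each median. S100A11 at 1.88 is the point farthest from 0, MYL6 at 0.86 the highest in the companion lists, and the C2-domain list has the lowest median, -0.32.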

How the data were processed

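Per their names, the tables that the authors deposited hold RPKM with upper-quartile scaling, with 1 library per group and 3 individuals pooled in each, per the labels. For aligner, read counter, genome build and annotation the labels name nothing. No value was altered before use. Members, companion lists and markers were chosen with earlier results of these data known.

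Whole reads were recovered with divisors of 890 (NC-siRNA) and 980 (SMAD4-siRNA) at the smallest whole length up to 40000 bases (relative tolerance 2e-09, absolute 1e-06). This gave whole reads for all 18428 genes above 0 in either library. The values fix the proportion of the divisors, while their common size was taken as these numbers, and reads are lower bounds for these divisors alone. Divisors of 445 and 490 also gave whole reads for 400 of 400 genes tried. Log2 ratios used a pseudocount of 1, which understates changes of low genes, and a minimum mean value of 1. Ratios are given for members with at least 20 reads. Every member is named, and from each companion list the 2 highest and 2 lowest with at least 100 reads. AGER, TLR4 and other genes named as 0 or with few reads were added after their values were seen. IDs without a symbol were named through the RefSeq table of Sscrofa11.1, used for names and gene order alone. No sequence is printed, since no sequence table was used here. Steps were tested on simulated data. Python 3.11.15, pandas 2.3.3, NumPy 2.4.6 and SciPy 1.17.1 were used.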

Additional observations from a re-analysis of the deposited data

How the results depend on the processing

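The count of annexins lower by 2-fold was 1 with a pseudocount of 0.1 and 2 at a 1.5-fold threshold, against 0. Binding partners higher by 2-fold were 1, against 0, with a pseudocount of 0.1. At 1.5-fold, 1 partner was higher and 1 lower. Annexins higher by 2-fold were 0, against 1, with a pseudocount of 5 or a minimum of 100 reads, since ANXA13 has few reads. All genes higher and lower by 2-fold numbered 466 and 437 with a pseudocount of 5, 572 and 546 with a minimum mean value of 5, 128 and 108 with at least 100 reads, 2245 and 2277 at 1.5-fold, and 730 and 705 among mRNA entries alone, against 1191 and 1110. The annexin median of -0.13 was -0.078 when centred on the median of all genes, and -0.0069 with libraries rescaled to the same sum, where the median of all genes was 0.070 and S100A11 was at 1.996. Chosen after seeing the data were interval counts under these scalings, the entries named through RefSeq, and S100 without S100A11. With rescaling, of the 7 S100 genes with at least 100 reads, 3 had intervals above 1 and 1 below. Of the 8 such annexins, 2 had one below, where 30.8% of all such genes lay above and 19.6% below. Centred on the median of all genes, 4 of those 8 annexins had an interval below 1, with no share of all genes taken on that scale. A minimum of 100 reads left 1 annexin above. Without rescaling, the 7 S100 genes joined by the 3 RefSeq-named entries with at least 100 reads gave 2 above and 4 below. The shares of all such genes were 17.6% above and 32.4% below. Without S100A11, and without the RefSeq names, there were 0 S100 genes above and 0 past 2-fold. S100A11 stayed between 1.876 and 1.996 on the log2 scale, ANXA8 between -0.80 and -0.68 and ANXA1 between 0.45 and 0.57 under the alternatives run on them. No paired analysis was possible because each group has 1 library.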
